A study of Arabidopsis thaliana with 17 samples.

Results

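SBT4.12 (AT5G59090), ATSBT5.2 (AT1G20160) and SBT1.3 (AT5G51750) are subtilase genes of Arabidopsis thaliana, and their transcript levels are described here across every group of a heat-memory experiment on whole seedlings. They were taken by annotation symbol, each was represented by 1 probe set, and together they were 3 of the 22746 probe sets measured. The choice rested on earlier results of these same arrays, without naming the comparison. All 3 genes have large falls after heat, and SBT1.3 is also higher in hsfa2 than in the wild type when both were primed and triggered. Those differences were taken as used by the choice and are given as a description, without a test. The same holds for the change of the heat response with priming and with genotype. The remaining 5 comparisons, of earlier heat and of genotype, were tested, although they share arrays with the described ones. All 5 can also be formed by adding or subtracting described ones, so their tests are not independent of the choice.

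All seedlings were 7 d old and in the Col-0 background, and came from 16 h days at 22 °C. Naive seedlings were never heated, primed seedlings were heated to 37 °C for 1 h at 4 d of age and recovered for 3 d, triggered seedlings had their 1 h at 37 °C directly before collection, and the primed and triggered group had heat at both times. Each wild-type group held 3 arrays except the primed group, which held 2, and each hsfa2 group held 2. The hsfa2 plants carry the T-DNA insertion SALK_008978, a single knockout line of HSFA2, which encodes a heat shock transcription factor that keeps heat-induced genes active after stress; hsfa2 seedlings that were primed without a second heat treatment were not analysed here.

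Subtilases are serine proteases with a catalytic triad of aspartate, histidine and serine. Most plant members are made as inactive precursors, lose an inhibitory propeptide on their way through the secretory pathway, and act in the cell wall space, where they cleave structural proteins, other enzymes and the precursors of signalling peptides. In Arabidopsis, SBT4.12 and SBT5.2 are known, together with SBT4.13, to release the mature IDA peptide, which triggers the shedding of floral organs, and SBT5.2 is also known to cleave EPF2, a peptide that restrains stomatal development. SBT1.3 belongs to the SBT1 branch of the family.

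The values are log2 intensities after RMA, a method that corrects the background, normalizes the arrays together and summarises the probes of each probe set, so a step of 1 is a doubling of intensity. Levels of different probe sets are not compared, because probe sets bind with different strength. Median intensities were between 51.8 and 58.9 in the 10 heated arrays and between 60.1 and 64.2 in the 7 unheated ones. Shifting each array to a common median raised the log2 changes from unheated to heated seedlings by 0.14 to 0.18. In the third naive array of the wild type and in both primed arrays the hybridization control bioB was at 4.40 to 4.43, against 6.98 to 8.14 in the other 14. The annotation lists no probe set for HSFA2, alone or among several genes, and the knockout label was not checked.

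SBT4.12 was high in every unheated array and low in every heated one. Its log2 intensities in naive wild-type seedlings were 9.07, 9.23 and 8.71, and those in triggered wild-type seedlings were 6.45, 6.36 and 5.91. Primed and triggered wild-type seedlings gave 6.45, 6.64 and 5.78. The third replicate was the lowest of each of these 3 groups. Primed wild-type seedlings gave 9.94 and 8.22, the highest and the lowest of the 7 unheated values. In hsfa2 the naive arrays were at 9.32 and 9.03, the triggered arrays at 6.54 and 6.49, and the primed and triggered arrays at 6.39 and 6.72. The 10 heated values, from 5.78 to 6.72, lay below the 7 unheated values, from 8.22 to 9.94, without overlap. Both triggered hsfa2 arrays were slightly above the 3 triggered wild-type arrays, whereas the primed and triggered groups of the genotypes overlapped.

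ATSBT5.2 was also lower in every heated array, with a smaller gap between the heated and the unheated ranges. Naive wild-type seedlings gave 7.60, 6.90 and 7.63, and primed wild-type seedlings 7.67 and 7.22. Triggered wild-type seedlings were at 6.08, 5.07 and 5.75, and primed and triggered ones at 6.53, 5.52 and 5.99. The second replicate was the lowest of the naive, the triggered and the primed and triggered wild-type groups. In hsfa2 the gene was at 7.30 and 7.28 in naive, at 5.09 and 5.58 in triggered, and at 5.83 and 5.77 in primed and triggered seedlings. The heated range, 5.07 to 6.53, ended 0.37 below the unheated range, 6.90 to 7.67.

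SBT1.3 had a narrower replicate spread than the other 2 genes in each wild-type group. Naive wild-type seedlings gave 8.86, 8.83 and 8.86, and primed wild-type seedlings 8.53 and 8.64, both below every naive value. Triggered wild-type seedlings were at 7.09, 7.29 and 7.10, and primed and triggered ones at 7.03, 7.32 and 7.13. Here the hsfa2 arrays stood above those of the wild type in each matched group. They were at 9.17 and 9.05 in naive, at 7.89 and 7.64 in triggered, and at 8.002 and 7.81 in primed and triggered seedlings. The 10 heated values, from 7.03 to 8.002, lay 0.53 or more below the unheated values, from 8.53 to 9.17.

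**Figure D1:**
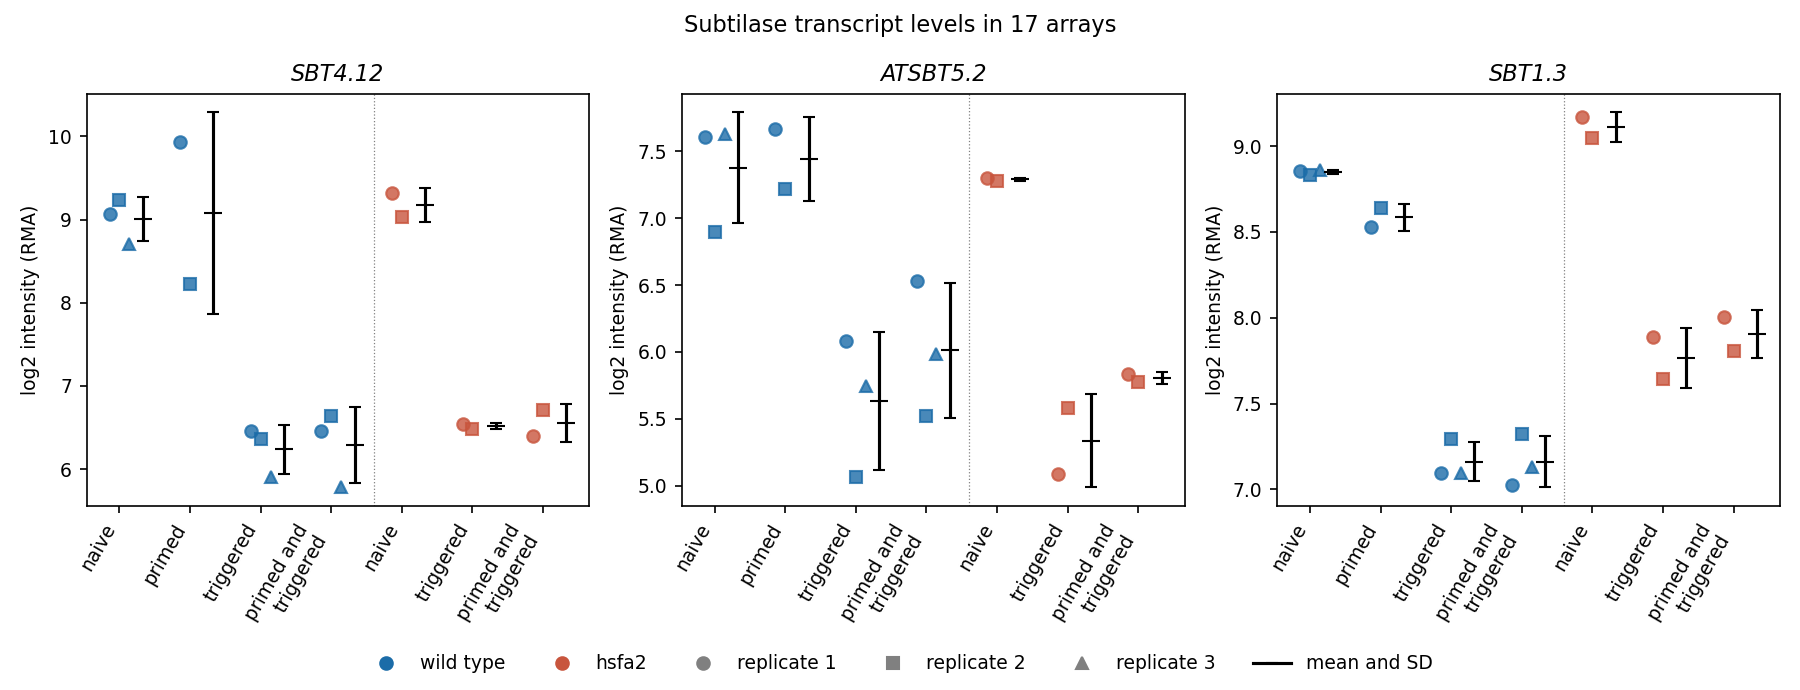
Log2 intensity (vertical axis) of SBT4.12, ATSBT5.2 and SBT1.3 in each of the 17 arrays by group (horizontal axis), with wild type in blue, hsfa2 in red, a marker shape for each replicate number, and bars for the mean and SD; each panel has its own vertical scale. For every gene the naive and primed arrays lie above all arrays heated just before collection, and in the SBT1.3 panel the heated hsfa2 arrays, from 7.64 to 8.002, lie above the heated wild-type arrays, from 7.03 to 7.32.

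The order of the 7 group means showed how far neighbouring groups could be told apart. For SBT4.12 the order ran from naive hsfa2 (9.17 ± 0.20, SD, n = 2), primed wild type (9.08 ± 1.21, n = 2) and naive wild type (9.003 ± 0.27, n = 3) down to primed and triggered hsfa2 (6.56 ± 0.23, n = 2), triggered hsfa2 (6.51 ± 0.04, n = 2), primed and triggered wild type (6.29 ± 0.45, n = 3) and triggered wild type (6.24 ± 0.29, n = 3). Only the step of 2.45 between naive wild type and primed and triggered hsfa2 exceeded the SD of both neighbours. For ATSBT5.2 the order was primed wild type (7.44 ± 0.32, n = 2), naive wild type (7.38 ± 0.41, n = 3), naive hsfa2 (7.29 ± 0.01, n = 2), primed and triggered wild type (6.01 ± 0.50, n = 3), primed and triggered hsfa2 (5.80 ± 0.04, n = 2), triggered wild type (5.63 ± 0.52, n = 3) and triggered hsfa2 (5.34 ± 0.35, n = 2). The step of 1.28 between the unheated and the heated groups was again the only one beyond the spread.

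SBT1.3 differed from both in that most neighbours in its order were separate. Naive hsfa2 (9.11 ± 0.09, n = 2) stood 0.26 above naive wild type (8.85 ± 0.01, n = 3), which stood 0.27 above primed wild type (8.58 ± 0.08, n = 2). Primed and triggered hsfa2 (7.90 ± 0.14, n = 2) followed 0.68 lower. It overlapped triggered hsfa2 (7.77 ± 0.17, n = 2), which stood 0.61 above the wild type. Triggered (7.16 ± 0.11, n = 3) and primed and triggered wild type (7.16 ± 0.15, n = 3) overlapped at the bottom of the order.

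The heat difference was larger for SBT4.12 than for the other 2 genes; SE is the standard error that limma gives. In the wild type triggered minus naive seedlings gave a log2 difference of -2.76 (SE 0.35), a 6.79-fold lower intensity, and it had the fourth largest fall among called probe sets with a symbol. Calls use a threshold of 0.05 on the adjusted p. ATSBT5.2 differed by -1.74 (SE 0.30), or 3.35-fold lower, and SBT1.3 by -1.69 (SE 0.11), or 3.22-fold lower. In this comparison 9.50% of all probe sets were called lower, which is background only, since the genes were chosen on it. Seedlings were measured whole, so less transcript per cell and fewer cells of a type that makes it cannot be told apart.

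After an earlier heat treatment the wild-type differences from naive seedlings were -2.71 for SBT4.12, -1.36 for ATSBT5.2 and -1.69 for SBT1.3. Against primed seedlings they were -2.79 (SE 0.39), -1.43 (SE 0.33) and -1.42 (SE 0.12). The SBT4.12 value rests on 2 primed arrays that lay far apart, and was -1.93 without the first and -3.64 without the second. The share of all probe sets called lower was 11.9% against naive and 12.6% against primed seedlings.

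In hsfa2, triggered seedlings differed from naive ones by -2.66 (SE 0.43) for SBT4.12, -1.95 (SE 0.36) for ATSBT5.2 and -1.34 (SE 0.14) for SBT1.3, which is 6.33-fold, 3.87-fold and 2.54-fold lower. Primed and triggered hsfa2 seedlings differed from naive ones by -2.62, -1.49 and -1.21. Of all probe sets, 4.88% and 4.82% were called lower in these comparisons.

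The first tested comparison asked whether heat at 4 d of age changed the level 3 d later. In the wild type 0 of 3 genes were called between primed and naive seedlings by limma, and 0 of 3 reached an unadjusted p under 0.05; 0.00440% of all probe sets were called. SBT4.12 differed by 0.07 (SE 0.39, 95% interval -0.77 to 0.92, adjusted p = 0.980) and ATSBT5.2 by 0.06 (SE 0.33, -0.65 to 0.78, adjusted p = 0.979). SBT1.3 differed by -0.27 (SE 0.12, -0.53 to 0.00, adjusted p = 0.555), with both primed arrays below all 3 naive ones. The wide interval of SBT4.12 goes with its primed arrays: the difference was -0.78 without the first and 0.93 without the second. The fit uses 1 spread per probe set for all 7 groups. The primed arrays (SD 1.21) therefore also widen the intervals of SBT4.12 in the other comparisons, among them those in hsfa2 and between genotypes. Within the 3 arrays of low bioB signal, which hold 1 naive and both primed arrays, the differences were 0.37 for SBT4.12, -0.19 for ATSBT5.2 and -0.27 for SBT1.3.

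The next comparison asked whether earlier heat changed the level reached after the second heat treatment. Between primed and triggered and triggered wild-type seedlings 0 of 3 genes were called by limma, 0 of 3 reached an unadjusted p under 0.05, and 0.308% of all probe sets were called. The differences were 0.05 for SBT4.12 (SE 0.35, 95% interval -0.71 to 0.81), 0.38 for ATSBT5.2 (SE 0.30, -0.26 to 1.02) and -0.0014 for SBT1.3 (SE 0.11, -0.24 to 0.24), each with an adjusted p of 1.00. The interval of SBT1.3 was the narrowest, and that of ATSBT5.2 still held a doubling.

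Replicate numbers paired these 2 wild-type groups, and are given pair by pair. ATSBT5.2 was higher in the primed and triggered array of every wild-type pair, by 0.45, 0.45 and 0.24, while its triggered level ranged from 5.07 to 6.08 over the pairs. With the pairs as a block in a fit of these 6 arrays, the difference was 0.38 (SE 0.12, adjusted p = 0.337), which is not called. In hsfa2, where 2 pairs are too few to check the numbering, the differences were 0.74 and 0.19. SBT4.12 gave -0.00056, 0.28 and -0.12 in the wild type and -0.14 and 0.23 in hsfa2, with no common direction. SBT1.3 gave -0.07, 0.03 and 0.03 in the wild type and 0.11 and 0.16 in hsfa2.

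**Figure D2:**
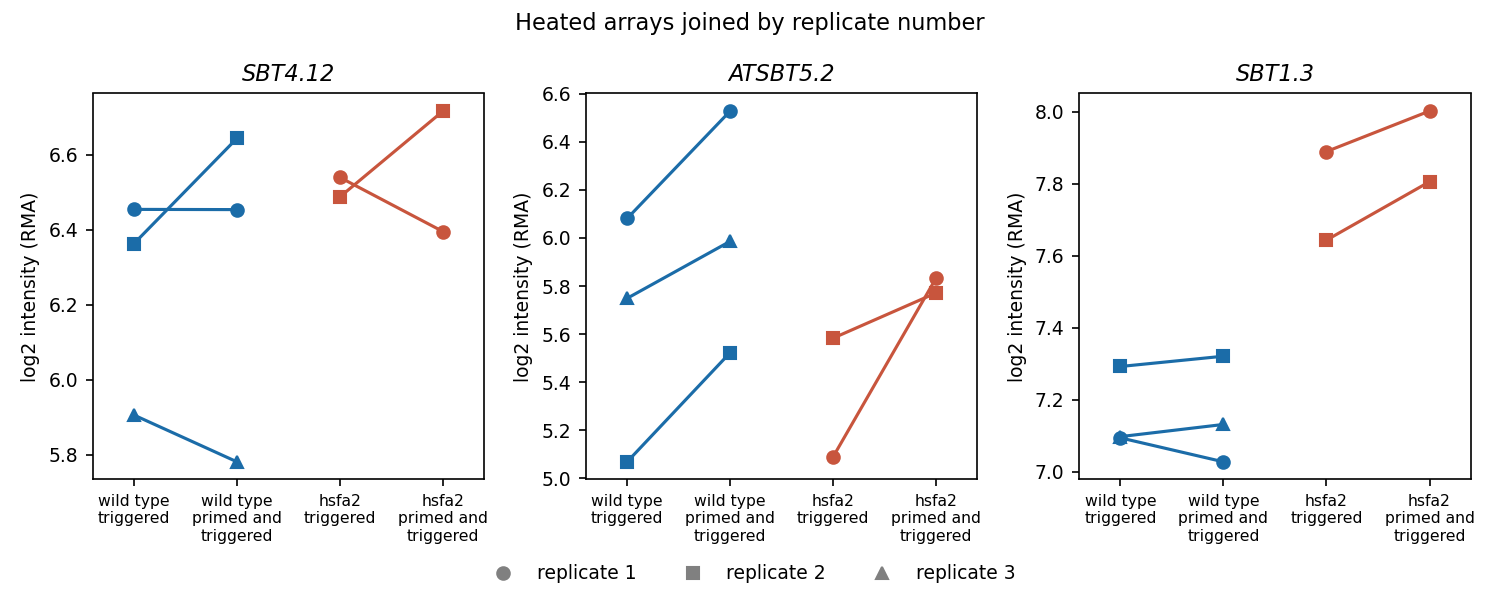
Log2 intensity (vertical axis) in the 10 heated arrays, with lines that join the triggered and the primed and triggered array of the same replicate number in the wild type (blue) and hsfa2 (red); each panel has its own vertical scale. ATSBT5.2 is higher after earlier heat in 5 of 5 lines, SBT1.3 in 4 of 5 and SBT4.12 in 2 of 5.

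The heat response of the wild type after priming, minus that without priming, joins 2 comparisons taken as used by the choice. It is given without a test: -0.02 for SBT4.12 (SE 0.53), 0.31 for ATSBT5.2 (SE 0.45) and 0.26 for SBT1.3 (SE 0.17). In hsfa2, primed and triggered minus triggered seedlings gave 0.04 for SBT4.12 (SE 0.43, 95% interval -0.89 to 0.97, adjusted p = 1.00), 0.47 for ATSBT5.2 (SE 0.36, -0.32 to 1.25, adjusted p = 0.965) and 0.14 for SBT1.3 (SE 0.14, -0.16 to 0.43, adjusted p = 0.996). Again 0 of 3 were called and 0 of 3 reached an unadjusted p under 0.05. No probe set on the array was called there by limma, while 1331 had an unadjusted p under 0.05.

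Loss of HSFA2 was compared in naive and in triggered seedlings. In naive seedlings hsfa2 minus wild type was 0.17 for SBT4.12 (SE 0.39, 95% interval -0.68 to 1.02, adjusted p = 0.999), -0.09 for ATSBT5.2 (SE 0.33, -0.81 to 0.63, adjusted p = 0.999) and 0.26 for SBT1.3 (SE 0.12, -0.01 to 0.53, adjusted p = 0.865). None of the 3 was called by limma or had an unadjusted p under 0.05; 0 of the 22746 probe sets were called, against 1317 with an unadjusted p under 0.05.

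In triggered seedlings SBT1.3 had the only one of the 3 genotype differences with an unadjusted p under 0.05. It was 0.61 higher in hsfa2 (SE 0.12, 95% interval 0.34 to 0.87), both hsfa2 arrays were above all 3 wild-type arrays, and its unadjusted p was 0.000313, but with an adjusted p of 0.298 over all probe sets it was not called. This comparison can be formed from described ones, among them the genotype difference in primed and triggered seedlings. Its p and interval are therefore not independent of the choice. For SBT4.12, too, both hsfa2 arrays were above the wild-type arrays, but narrowly, with the lower hsfa2 array at 6.49 and the highest wild-type array at 6.45. It differed by 0.27 (SE 0.39, -0.58 to 1.12, adjusted p = 0.945). In no comparison was such a separation of arrays counted over all probe sets, so it is a description only. ATSBT5.2 differed by -0.30 (SE 0.33, -1.01 to 0.42, adjusted p = 0.913). Of all probe sets 0.00879% were called, and 1576 had an unadjusted p under 0.05. In primed and triggered seedlings, where SBT1.3 was listed earlier as the eighth largest rise, it was 0.74 higher in hsfa2 (SE 0.12), SBT4.12 differed by 0.26 (SE 0.39) and ATSBT5.2 by -0.21 (SE 0.33). In that comparison 0.572% of all probe sets were called higher.

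The heat response, triggered minus naive, in hsfa2 minus that in the wild type likewise joins 2 comparisons taken as used by the choice. Without a test, it was 0.10 for SBT4.12 (SE 0.56), -0.21 for ATSBT5.2 (SE 0.47) and 0.34 for SBT1.3 (SE 0.18).

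**Figure D3:**
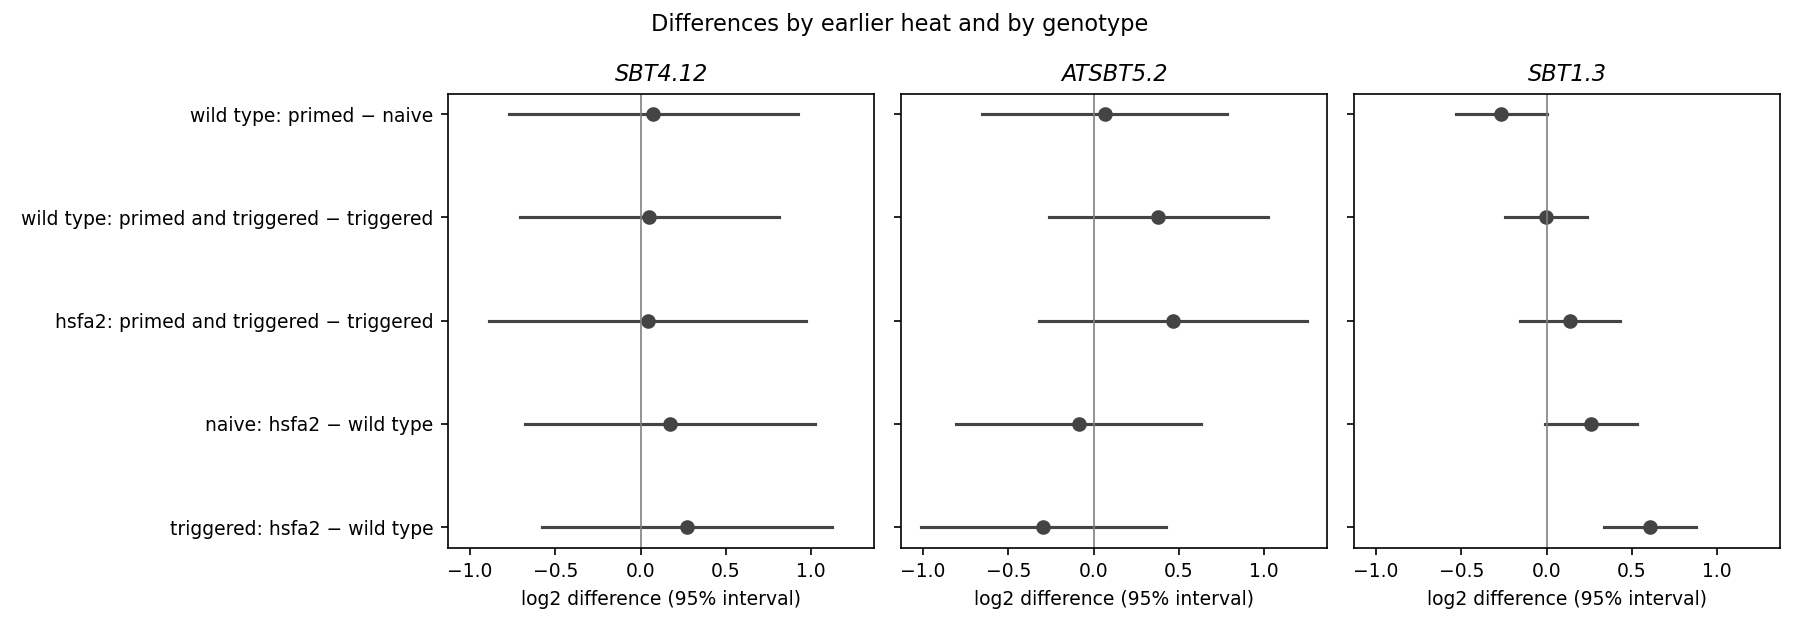
Log2 differences (horizontal axis, points, with 95% intervals from limma as lines, unadjusted for the number of probe sets) of the 3 genes in the 5 comparisons that were tested (vertical axis). Only the interval of SBT1.3 between triggered hsfa2 and triggered wild-type seedlings, 0.34 to 0.87, lies wholly on one side of 0, and its adjusted p was 0.298. The 5 comparisons can be formed from described ones, so the intervals are not independent of the choice of the genes.

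The other subtilases were compared in the same seedlings. The family list held 52 other loci, of which 41 had a probe set of their own. In triggered against naive wild-type seedlings 8 of the 41 fell and 0 rose, with a median log2 change of 0.01 against 0.00 over the whole array, where 9.50% of probe sets were called lower and 5.90% higher. Of the 14 with a mean log2 intensity of at least 5, 7 fell and 13 had a change below 0 (median -0.82), while 1 of the 27 dimmer ones fell. Over all probe sets of that brightness, 13.4% were called lower (1852 of 13794), with a median change of -0.09. On the whole array 2161 of 22746 were called lower, so calls were rarer among all dimmer probe sets too. In hsfa2, 6 of the 41 fell and 0 rose, against 4.88% of all probe sets called lower and 3.50% higher. Of the 14 brighter ones 5 fell and 13 had a change below 0 (median -1.08). Among all probe sets of that brightness, 6.91% were called lower and the median change was -0.08. Fitted on the compared groups alone, 3 of the 41 were called lower in the wild type and 12 in hsfa2. Calls over all probe sets, in either direction, moved the same way. They went from 3502 to 1832 in the wild type and from 1908 to 5084 in hsfa2. With any 1 hsfa2 array of that comparison left out, 3 of the 41 were called lower in hsfa2, and 828 to 1039 of all probe sets were called in either direction. These shifts therefore say little about subtilases.

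AT2G39850, AT4G30020, AT2G05920 and AT3G14240 fell in triggered seedlings of both genotypes. AT2G39850 fell from 5.98 ± 0.06 to 4.36 ± 0.27 in the wild type (SD, n = 3 each; adjusted p = 2.63e-05 by limma) and changed by -1.56 in hsfa2 (adjusted p = 0.000341). AT4G30020 changed by -1.55 (adjusted p = 5.21e-05) in the wild type and -1.37 (adjusted p = 0.00126) in hsfa2, and AT2G05920 by -1.41 (adjusted p = 0.000156) and -1.27 (adjusted p = 0.00270). AT3G14240 had smaller changes of -0.87 (adjusted p = 0.00561) and -0.85 (adjusted p = 0.0335). AT2G39850 was also at 4.98 ± 0.17 (n = 2) in primed and 5.44 ± 0.01 (n = 2) in naive hsfa2 seedlings, both below naive wild type, but neither difference was called.

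Others passed the test in 1 genotype only. ARA12, whose product is needed for the release of seed-coat mucilage, fell by 1.21 in the wild type (adjusted p = 0.00995) and had a change of -1.10 in hsfa2 (adjusted p = 0.0701). AT5G44530 (-1.18, adjusted p = 0.0210) and AT3G14067 (-1.30, adjusted p = 0.0128) also fell in the wild type, with changes of -1.11 (adjusted p = 0.101) and -1.10 (adjusted p = 0.107) in hsfa2. AT4G20430 (-1.07, adjusted p = 0.0148) and AT5G59130 (-1.14, adjusted p = 0.0417) fell in hsfa2, with changes of -0.54 (adjusted p = 0.0887) and -0.44 (adjusted p = 0.298) in the wild type. AT5G45650 passed in neither (-0.76, adjusted p = 0.133, and -1.13, adjusted p = 0.102). None of the 41 was called by limma between genotypes in their heat response, where only 1 of all 22746 probe sets was called. A difference between the genotypes was therefore not shown, and the count says little about subtilases.

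A few subtilases outside the naming rule were singled out after their values had been seen, for their known roles. SBTI1.1, known to cleave the precursor of a phytosulfokine growth peptide, fell by 1.14 in the wild type (adjusted p = 0.0120) and was at -0.70 in hsfa2 (adjusted p = 0.253). S1P, the Golgi protease that releases membrane-bound bZIP factors under stress in the endoplasmic reticulum, was at 0.07 in the wild type (adjusted p = 0.828) and 0.00 in hsfa2 (adjusted p = 0.994). TPP2, a large cytosolic peptidase, was at -0.20 (adjusted p = 0.332) in the wild type and -0.28 in hsfa2. SBT4.13, the other protease known to process IDA, was at 0.12 (adjusted p = 0.546) and 0.13, and its log2 intensity stayed between 2.91 and 3.39 in all 17 arrays, where a change would be hard to see.

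**Figure D4:**
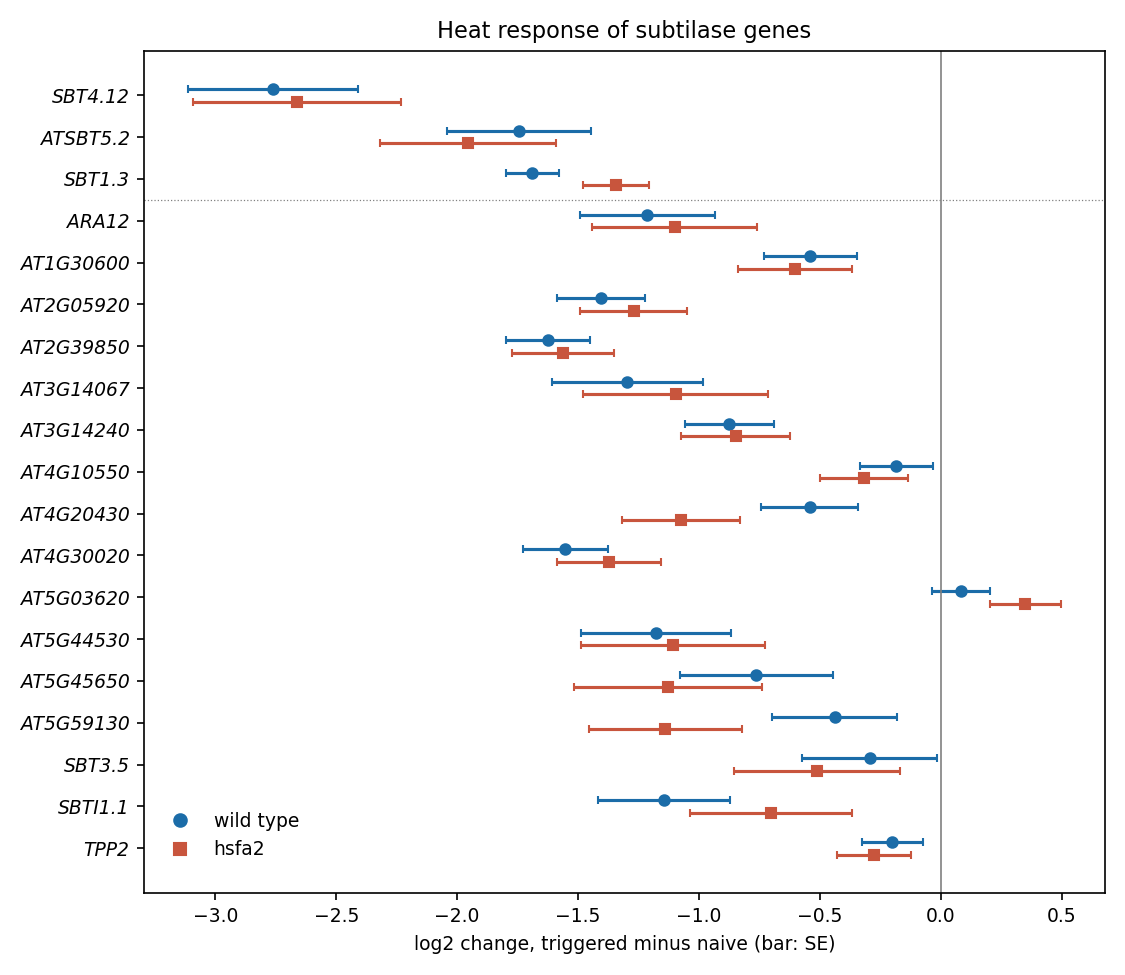
Log2 change from naive to triggered seedlings (horizontal axis; bars are the SE of the fit) of the 3 genes, above the dotted line, and of the other subtilase genes called in at least 1 comparison, below it, in the wild type (blue circles) and hsfa2 (red squares). SBT4.12, at -2.76 and -2.66, lies furthest to the left, and AT2G39850, at -1.62 and -1.56, is the lowest of the others.

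The subtilase genes nearest to the 3 on the chromosomes differed in their values. Counted in protein-coding genes along the RefSeq annotation, AT5G59100 is 1 gene from SBT4.12, SBT4.13 is 4 and AT5G59130 is 5. AT5G59100 stayed between 3.29 and 3.55 in all arrays, with changes of 0.05 in the wild type and 0.12 in hsfa2, whereas AT5G59130 ranged from 5.19 to 6.81. AT1G20150, 1 gene from ATSBT5.2, stayed between 3.16 and 3.58, with changes of 0.16 and 0.02. SBT1.3 had no measured subtilase within 10 genes on either side.

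Peptide precursors, receptors and targets of subtilases were thinly covered: 5 of 32 listed genes were measured, and IDA and EPF2 were not among them. BZIP28, a membrane-bound transcription factor that S1P releases, rose by 1.87 in triggered wild-type (SE 0.14, adjusted p = 8.46e-07) and 2.11 in triggered hsfa2 seedlings (adjusted p = 2.61e-06), and the other 4 were not called; 5.90% and 3.50% of all probe sets were called higher in these comparisons. Of 24 other listed proteases and protease inhibitors, not all of them secreted, 13 were measured. In the wild type 1 rose, 0 fell and the median change was -0.21, against 0.00 over the whole array, where 9.50% were called lower. The 1 was AT1G71950, at 0.63 (adjusted p = 0.0274). In hsfa2 it was at 0.51 (adjusted p = 0.188), and none of the 13 was called by limma, against 4.88% of all probe sets called lower. With so few genes these counts say little about the group.

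Between heated and unheated seedlings, markers of the root moved in the same direction as the 3 genes. All 3 measured of 4 root markers fell in triggered seedlings of both genotypes, where 9.50% (wild type) and 4.88% (hsfa2) of all probe sets were called lower: PYK10, a root beta-glucosidase, changed by -1.84 in the wild type and -1.36 in hsfa2, and the root hair expansins EXPA7 by -1.30 and -1.22 and EXPA18 by -1.20 and -1.72. Their summed level, which is almost wholly that of PYK10 (mean 12.51 of 12.53 in naive wild type), was 12.45 to 12.60 in naive and 12.78 to 12.94 in primed wild-type seedlings, 10.42 to 10.86 in triggered and 10.82 to 11.70 in primed and triggered ones. In hsfa2 it was 12.50 to 12.67 in naive, 10.95 to 11.49 in triggered and 11.33 to 11.35 in primed and triggered seedlings. Of 3 guard cell markers only FMA was measured, and it was at -0.69 in the wild type (adjusted p = 0.151) and -0.76 in hsfa2 (adjusted p = 0.263); no shoot marker was measured. In primed minus naive wild-type seedlings EXPA7 was at 0.80, EXPA18 at 0.54 and PYK10 at 0.32. There SBT4.12 was at 0.07, ATSBT5.2 at 0.06 and SBT1.3 at -0.27, and none of these genes or markers was called. The part of root RNA in the lower subtilase levels was not tested.

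Across the 17 arrays the 3 genes followed each other, with Pearson's r of 0.88 between SBT4.12 and ATSBT5.2, 0.91 between SBT4.12 and SBT1.3, and 0.77 between ATSBT5.2 and SBT1.3. These points share the split between heated and unheated arrays, which was taken as used by the choice. Among the 13512 other probe sets with 1 gene, the patterns most like SBT4.12 were those of AT1G11670 and AT5G58150 (r of 0.98 each), then AGL16, a MADS-box factor, AT1G28400 and AT3G24670 (0.97 each). AT1G78060 was most like ATSBT5.2, at 0.97, and was also first over the 7 group means. AT5G49610, AT5G20885 and AT1G63150 followed at 0.95 and AT4G17080 at 0.94. For SBT1.3 they were AT4G38640, AT1G01300, BRH1, a RING-finger protein that responds to brassinosteroids, AT3G50270 and AT3G08030, each at 0.95. Most of these genes ranked lower by r over the 7 group means. In the order named, those for SBT4.12 ranked 20, 56, 33, 189 and 175. Those for ATSBT5.2 after AT1G78060 ranked 31, 86, 5 and 198, and those for SBT1.3 ranked 60, 153, 85, 121 and 19.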

How the data were processed

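Whole-seedling RNA was hybridised to 17 one-colour Affymetrix arrays in 7 groups, taken from the sample titles. The deposited values are linear intensities of 22810 probe sets that the authors made with RMA, per the submitters' processing notes; its version is not given in the sources used here. They were put on the log2 scale without a pseudocount, and 64 control probe sets were removed. Names came from the platform annotation (13513 probe sets with 1 gene, 503 with several, 8730 not listed), updated through a RefSeq table of TAIR10.1; no sequence or coordinate is given.

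Group means were fitted with limma 3.58.1 (R 4.3.3) to all 22746 probe sets and 17 arrays (10 residual degrees of freedom), with Benjamini-Hochberg adjustment over all probe sets in each contrast. The script was tested on simulated data. The number of arrays limits the precision. The labels call replicates biological without naming separate cultures, so p-values measure the spread between these samples.

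The genes, the lists and the contrasts were chosen with earlier results of these data known. Contrasts between heated and unheated seedlings within a genotype, and that between genotypes in primed and triggered seedlings, were taken as used by the choice. So were priming by triggering and the heat response between genotypes. None of these was tested for the 3 genes, although tests of some had been planned. The 5 tested comparisons, of earlier heat and of genotype, can also be formed by adding or subtracting such contrasts. Other subtilases were named when called in any contrast, at most 10 by the adjusted p in triggered against naive hsfa2, which leaves 10 of 16; like genes were the 5 highest Pearson's r.

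Same-numbered triggered and primed and triggered wild-type arrays deviated together (correlations 0.563, 0.642 and 0.656) and were taken as pairs; naive and triggered ones did not (-0.162, 0.567 and 0.184). Alternatives were median centring, quantile normalization, a filter on dim probe sets, replicate and bioB blocks, fits of the compared groups alone and leaving out each array.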

Additional observations from a re-analysis of the deposited data

How the results depend on the processing

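The 3 genes stayed lower in heated than in unheated seedlings of the same genotype in 186 of 186 values from alternatives, and no alternative brought a call in the 5 tested comparisons. With each array centred on its median, SBT1.3 gave -1.54 (triggered minus naive), -1.54 (primed and triggered minus naive) and -1.25 (minus primed) in the wild type and -1.06 in hsfa2 (primed and triggered minus naive), where ATSBT5.2 gave -1.34, or -1.41 with quantile normalization. Quantile normalization gave 0.011 for SBT1.3 in primed and triggered minus triggered wild type. With the replicate number as a block, SBT4.12 gave -0.11 (primed minus naive), 0.17 (priming by triggering) and -0.018 (hsfa2 minus wild type, naive); the block changed no call of the 3 genes, also in the paired groups. With bioB as a block, ATSBT5.2 gave -0.19 (primed minus naive) and 0.038 (hsfa2 minus wild type, naive; also 0.038 without the 3 arrays of low bioB, a setting added after seeing the data, as was the paired fit of 6 arrays).

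The count of other subtilases called lower in primed and triggered against primed wild type was 10 as reported, 6 after centring, 2 with the bioB block, 5 from these groups alone and 4 to 9 with an array left out. Over all probe sets, calls in either direction were 4802 as reported, 6091 after centring, 954 with the bioB block and 3088 to 5001 with an array left out. The compared groups alone gave 3 in place of 8 for triggered against naive wild type, and 12 and 14 in place of 6 and 5 for the 2 hsfa2 heat comparisons, where leaving out an array gave 3 in each case. Fits of the compared groups alone and those without an array rest on fewer arrays; the cause of the other shifts was not tested.

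Leaving out each array in turn gave, for SBT4.12, -0.78 to 0.93 (primed minus naive), -0.88 to 0.83 (priming by triggering), -0.12 to 0.31 (primed and triggered minus triggered, wild type), -0.12 to 0.20 (the same in hsfa2) and -0.066 to 0.25 (heat response, hsfa2 minus wild type). ATSBT5.2 gave -0.17 to 0.29 (primed minus naive), -0.33 to 0.038, -0.45 to 0.049 and -0.49 to 0.038 (hsfa2 minus wild type in naive, in primed and triggered, and in heat response). SBT1.3 gave -0.082 to 0.065 (primed and triggered minus triggered, wild type). Values that kept their direction but moved over 1.5 times were those of ATSBT5.2 in primed and triggered minus triggered wild type (0.097 to 0.62) and hsfa2 (0.22 to 0.71), in priming by triggering (0.033 to 0.56) and in hsfa2 minus wild type, triggered (-0.58 to -0.049), those of SBT4.12 in hsfa2 minus wild type (naive 0.026 to 0.31, triggered 0.11 to 0.38, primed and triggered 0.0071 to 0.44) and those of SBT1.3 in primed and triggered minus triggered hsfa2 (0.014 to 0.26) and in heat response, hsfa2 minus wild type (0.22 to 0.47).

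Over all alternatives, the probe sets called ranged from 1832 to 4324 for triggered against naive wild type (3502 as reported), 2172 to 5597 for primed and triggered against naive (4504), 954 to 6091 against primed (4802), 0 to 542 for primed against naive (1), 4 to 142 for primed and triggered against triggered (70) and 0 to 29 for priming by triggering (4). In hsfa2 they ranged from 828 to 5084 for triggered against naive (1908), 777 to 6004 for primed and triggered against naive (1775) and 0 to 29 for primed and triggered against triggered (0). Between genotypes they ranged from 0 to 12 in naive (0), 1 to 31 in triggered (2), 5 to 498 in primed and triggered seedlings (311) and 1 to 29 for the heat response (1). Dim probe sets, such as that of SBT4.13, limit what can be seen.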
